A study of Mus musculus with 18 samples.

Results

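The 10 genes described here are targets and feedback regulators of YAP, a transcriptional coactivator, and of the TEAD factors that bring it to DNA. They are Ccn1, Ccn2 and Thbs1, which encode secreted matrix proteins, Axl, which encodes a receptor tyrosine kinase, Ankrd1, Amotl2, Lats2 and Ajuba, and the genes of the pathway's own factors, Tead1 and Yap1. They were taken by gene symbol, with no threshold on a measured value, but the list was chosen with earlier results of these data known. Counts of its members beside the shares of all genes are therefore descriptions and not an independent test. All 10 were measured, out of 19938 genes with a probe set of their own. The cells were B16 F10.9-4, a mouse line of the B16 melanoma lineage that makes LIP when given doxycycline. LIP is a short form of C/EBPβ, a transcription factor encoded by Cebpb, and keeps the DNA-binding part of C/EBPβ and lacks most of its activating part. Tunicamycin, which blocks N-linked glycosylation and so causes protein to misfold in the endoplasmic reticulum, followed the doxycycline pretreatment, and RNA was taken after 0, 5 and 12 h. There were 6 groups: doxycycline (LIP) alone and vehicle at 0 h, LIP with tunicamycin and tunicamycin alone at 5 h, and LIP with tunicamycin and tunicamycin alone at 12 h. Each group held 3 one-colour Affymetrix arrays, 1 from each of 3 independent experiments, 18 arrays in all. All groups are of the 1 line, and the labels name neither the construct that carries LIP nor a clone. Doxycycline without LIP, and vehicle at 5 or 12 h, are not analysed here, so LIP cannot be told apart from doxycycline, nor tunicamycin from time in culture.

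In the Hippo pathway, the kinases MST1 and MST2 activate LATS1 and LATS2, which phosphorylate YAP and its paralogue TAZ and keep them out of the nucleus. Unphosphorylated YAP enters the nucleus, binds a TEAD factor and turns on genes such as Ccn1 and Ccn2, which serve widely as readouts of the pathway. Some targets act back on it: LATS2 phosphorylates YAP, AMOTL2 binds it outside the nucleus, and AJUBA restrains the LATS kinases. In melanoma, AXL is a mark of dedifferentiated, invasive cells. Arrays read mRNA, and the phosphorylation and location of YAP are not visible in these data.

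TEAD factors bind a short sequence, GGAATG on one strand or CATTCC on the other. It was looked for in the 250 bases before the transcription start, in RefSeq promoters of build GRCm38.p6, where 7 of the 10 genes had an entry (Ccn1, Ankrd1, Amotl2, Lats2, Axl, Ajuba and Yap1). Ccn2, Thbs1 and Tead1 had none. At least 1 copy stood in the promoters of 6 of the 7 genes, while 12.6% of all 32851 promoters held one. Promoters of 3 genes that changed in these cells (Ccn1, Amotl2 and Axl) and of 1 that stayed dim (Ankrd1) are shown, because each holds the TEAD letters, in capitals. They run 5′ to 3′ along the gene's strand and end at the base before the start.
Ccn1: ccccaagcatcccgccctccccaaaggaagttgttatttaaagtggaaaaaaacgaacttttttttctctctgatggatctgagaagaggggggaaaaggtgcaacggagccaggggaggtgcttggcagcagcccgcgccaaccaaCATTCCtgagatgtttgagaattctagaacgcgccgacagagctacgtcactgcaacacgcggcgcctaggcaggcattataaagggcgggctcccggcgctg
Amotl2: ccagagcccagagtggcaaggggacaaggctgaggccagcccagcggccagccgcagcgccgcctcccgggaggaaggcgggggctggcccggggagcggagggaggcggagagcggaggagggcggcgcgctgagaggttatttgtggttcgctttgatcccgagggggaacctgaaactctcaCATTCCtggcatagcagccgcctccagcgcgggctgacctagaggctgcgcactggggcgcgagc
Axl: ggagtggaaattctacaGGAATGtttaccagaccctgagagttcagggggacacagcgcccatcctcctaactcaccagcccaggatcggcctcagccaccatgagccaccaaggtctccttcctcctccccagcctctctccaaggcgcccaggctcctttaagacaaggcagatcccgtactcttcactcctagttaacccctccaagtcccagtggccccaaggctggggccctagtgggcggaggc
Ankrd1: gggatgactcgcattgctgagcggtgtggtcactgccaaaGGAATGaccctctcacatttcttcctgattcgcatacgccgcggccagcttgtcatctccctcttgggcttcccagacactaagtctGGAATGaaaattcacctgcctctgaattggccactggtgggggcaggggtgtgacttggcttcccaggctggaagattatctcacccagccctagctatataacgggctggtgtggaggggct
The Ccn1 stretch is chr3:145649986-145650235 on the minus strand, with CATTCC at bases -103 to -98 before the start. That of Amotl2 is chr9:102717554-102717803 on the plus strand, with CATTCC at -65 to -60. That of Axl is chr7:25788734-25788983 on the minus strand, with GGAATG at -233 to -228. Ankrd1, at chr19:36119845-36120094 on the minus strand, has 2 copies of GGAATG, at -210 to -205 and at -123 to -118. Ajuba also has 2 copies and Yap1 has 1, whereas neither Lats2 promoter has the letters in this window. The AP-1 letters TGANTCA (6.75% of all promoters, both strands), the C/EBP letters TTGCNNAA (9.56%), the composite C/EBP-ATF letters TGATGCAA (0.791%) and the CArG box of SRF (1.47%) were each found in 0 of these members' promoters. A match is a description of the letters and does not show binding.

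Levels are RMA log2 intensities as deposited, and all levels and differences below are on that scale; a difference of 1 is 2-fold. Without detection calls, the 95th percentile of 1194 olfactory and vomeronasal receptor genes, 6.07, served as the level of silent genes. Of the 10 genes, 9 lay above it on average, and Ankrd1 (mean 5.57) lay below. The Cebpb probe set does not separate LIP from the longer isoforms: it was higher with LIP by 1.84 at 0 h, 1.81 at 5 h and 1.22 at 12 h (SE 0.071 each). Ddit3, which encodes the stress factor CHOP, rose by 1.17 at 5 h and 2.89 at 12 h of tunicamycin without LIP (SE 0.084 each), and Hspa5, which encodes the chaperone BiP, rose by 0.69 ± 0.050 at 12 h. At 5 h without LIP Hspa5 did not pass (-0.0096 ± 0.050, limma adjusted p = 0.93). All 10 melanocyte lineage markers lay above 6.07. The tunicamycin 5 h array of experiment 2 had the largest residual SD (0.113, against 0.061 on the tightest array). Each difference has its standard error (SE) and a limma p adjusted over all 19938 genes, and a gene counts as changed at an adjusted p under 0.05.

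Cells with LIP had higher mRNA of most of these genes at each time. Thbs1 mRNA had the largest difference of the 10 at each time: it was 1.74-fold higher in LIP cells than in vehicle at 0 h, 2.35-fold at 5 h and 2.61-fold at 12 h of tunicamycin. Axl stood 1.44-fold, 1.75-fold and 1.76-fold higher. Altogether 6 of the 10 genes rose with LIP at 0 h, 8 at 5 h and 7 at 12 h. Over all genes tested, LIP raised 4.89% at 0 h, 6.76% at 5 h and 6.95% at 12 h, and lowered 5.82%, 5.21% and 7.77%. Ccn2, Thbs1, Lats2, Axl, Ajuba and Tead1 passed at all 3 times, as did 2.74% of all genes. Yap1 and Ankrd1 passed at no time. The median difference of the 10 genes was 0.18, 0.40 and 0.35 at 0, 5 and 12 h, while that of all genes was 0.016, -0.013 and -0.003.

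**Figure D1:**
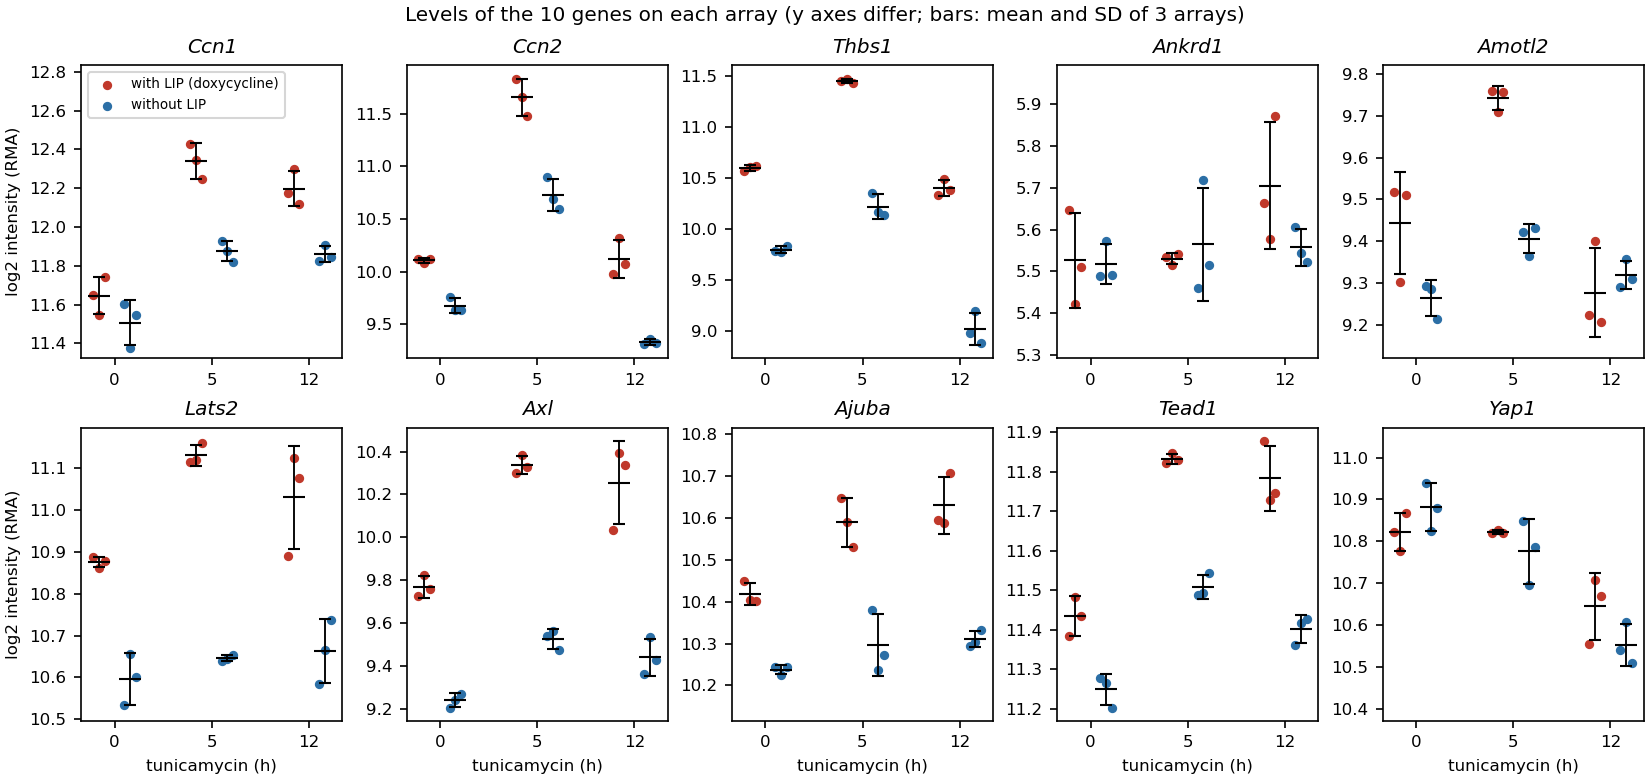
Log2 intensity (RMA, y axes differ) of the 10 genes against hours of tunicamycin, with LIP (red) and without LIP (blue). Points are single arrays, and black bars are the mean and SD of 3 arrays. Ccn2 and Thbs1 peak at 5 h in both conditions, and Ankrd1 stays between 5.42 and 5.87 throughout.

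Thbs1 encodes thrombospondin-1, a matrix glycoprotein that binds CD47 and activates latent TGF-β. At 0 h its levels were 10.56, 10.61 and 10.62 on the LIP arrays and 9.78, 9.77 and 9.84 on the vehicle arrays. At 5 h of tunicamycin they were 11.45, 11.48 and 11.43 with LIP and 10.35, 10.17 and 10.14 without. At 12 h they were 10.34, 10.49 and 10.38 with LIP and 8.98, 9.19 and 8.88 without. No array with LIP overlapped those without LIP at the same time. Groups apart in this way, with LIP higher, were found for 17.7% of all genes at 0 h, 12.8% at 5 h and 12.8% at 12 h. With LIP lower, the shares were 16.5%, 11.4% and 13.4%. The differences were 0.80 ± 0.070, 1.23 ± 0.070 and 1.38 ± 0.070 (SE, n = 3 arrays a group), with limma's adjusted p of 6.72e-07, 1.42e-09 and 1.17e-10. Among all 19938 genes these were the 18th, 13th and 13th largest rises.

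Ccn2 encodes CTGF, a matricellular protein that binds integrins and growth factors. Its levels at 0 h were 10.12, 10.08 and 10.12 with LIP alone and 9.76, 9.64 and 9.64 in vehicle. At 5 h LIP cells read 11.84, 11.66 and 11.48, and cells without LIP 10.90, 10.69 and 10.60. At 12 h LIP cells read 9.97, 10.32 and 10.08, and cells without LIP 9.31, 9.36 and 9.32. The groups were again apart at each time (shares of all genes as given for Thbs1). LIP raised Ccn2 by 0.43 ± 0.091 at 0 h (limma adjusted p = 0.00404), 0.93 ± 0.091 at 5 h (adjusted p = 1.21e-06) and 0.79 ± 0.091 at 12 h (adjusted p = 5.09e-06).

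Ccn1, the third secreted member, encodes CYR61, an integrin ligand. At 0 h it read 11.65, 11.55 and 11.74 with LIP and 11.60, 11.38 and 11.54 in vehicle, so that the groups overlapped (difference 0.14 ± 0.068, adjusted p = 0.241). At 5 h it read 12.43, 12.34 and 12.25 with LIP against 11.93, 11.88 and 11.82 without. At 12 h it read 12.17, 12.30 and 12.12 with LIP against 11.83, 11.91 and 11.85 without. Ccn1 was thus higher with LIP under tunicamycin, by 0.46 ± 0.068 at 5 h (limma adjusted p = 0.000109) and 0.34 ± 0.068 at 12 h (adjusted p = 0.00162). The intervals of its difference were -0.0043 to 0.28 at 0 h, 0.32 to 0.61 at 5 h and 0.20 to 0.48 at 12 h, and the tests of how these differ are the interactions given further on.

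Axl, the receptor for GAS6, was the receptor among the targets. Its levels at 0 h were 9.72, 9.82 and 9.76 with LIP and 9.21, 9.24 and 9.27 in vehicle. At 5 h they were 10.30, 10.38 and 10.33 with LIP and 9.54, 9.56 and 9.47 without. At 12 h they were 10.03, 10.39 and 10.34 with LIP and 9.36, 9.53 and 9.43 without. The lowest LIP array lay above the highest array without LIP at each time (shares of all genes as given for Thbs1). LIP raised Axl by 0.53 ± 0.072, 0.81 ± 0.072 and 0.81 ± 0.072 at the 3 times, with limma's adjusted p of 9.68e-05, 4.72e-07 and 2.29e-07. While Axl rose, melanocyte genes fell: 8, 9 and 9 of the 10 lineage markers were lower with LIP at 0, 5 and 12 h. Their summed level was 15.22 to 15.27 on the LIP arrays and 15.64 to 15.71 on the arrays without LIP at 12 h, and the part of this shift in the results on Axl was not tested. In bulk RNA, fewer cells of a type and less RNA per cell cannot be told apart. Of the fibroblast markers, 4 of 6 lay above 6.07 (Col1a2 highest, at 7.90, and Lum lowest, at 4.50), with a summed level of 9.42 to 9.43 with LIP alone and 9.44 to 9.49 in vehicle. Only 2 of 5 endothelial, 1 of 5 macrophage and leukocyte and 1 of 4 epithelial markers lay above it.

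The differences of the feedback genes were smaller than those of Thbs1 and Axl. Lats2, the kinase gene, read 10.89, 10.86 and 10.88 with LIP alone and 10.53, 10.66 and 10.60 in vehicle. At 5 h it read 11.11, 11.12 and 11.16 with LIP and 10.64, 10.64 and 10.65 without, and at 12 h 10.89, 11.13 and 11.08 with LIP and 10.58, 10.66 and 10.74 without. LIP and LIP-free arrays did not overlap at any time (17.7%, 12.8% and 12.8% of all genes were apart in this direction). The differences were 0.28, 0.485 and 0.37 (SE 0.057 each, limma adjusted p = 0.00313, 1.01e-05 and 0.000138). Ajuba, which encodes a LIM protein, was higher with LIP by 0.18, 0.29 and 0.32 (SE 0.050 each, adjusted p = 0.0228, 0.000446 and 0.000136). Its rise at 0 h was lost when any 1 of the 6 arrays compared was left out (adjusted p of 0.0528 to 0.0931) and when array medians were set equal (adjusted p = 0.164).

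Amotl2, whose protein holds YAP outside the nucleus, passed at 5 h and not at 0 or 12 h. With LIP it read 9.52, 9.30 and 9.51 at 0 h, against 9.29, 9.29 and 9.21 in vehicle. At 5 h it read 9.76, 9.71 and 9.76 with LIP, against 9.42, 9.37 and 9.43 without. At 12 h it read 9.23, 9.40 and 9.21 with LIP, against 9.29, 9.36 and 9.31 without. The groups were apart at 0 and 5 h (17.7% and 12.8% of all genes were apart in this direction) and overlapped at 12 h. LIP raised Amotl2 by 0.34 ± 0.061 at 5 h (limma adjusted p = 0.000852). The difference was 0.18 ± 0.061 at 0 h (adjusted p = 0.0692, but 0.0125 to 0.0443 in 5 settings, 2 of them leaving out 1 array) and -0.042 ± 0.061 at 12 h (adjusted p = 0.781, interval -0.17 to 0.086).

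Of the factors themselves, Tead1 rose with LIP and Yap1 passed at no time. Tead1, the DNA-binding partner, read 11.38, 11.48 and 11.44 with LIP alone and 11.28, 11.27 and 11.20 in vehicle. At 5 h it read 11.82, 11.85 and 11.83 with LIP and 11.49, 11.49 and 11.54 without, and at 12 h 11.88, 11.73 and 11.75 with LIP and 11.36, 11.42 and 11.43 without. The differences were 0.19, 0.32 and 0.38 (SE 0.048 each, limma adjusted p = 0.0168, 0.000125 and 1.52e-05), and the first was lost when array medians were set equal (adjusted p = 0.117) or when vehicle array 3, LIP array 2 or LIP array 3 was left out (0.0534 to 0.0863). Yap1, the coactivator, differed by -0.059, 0.046 and 0.092 (SE 0.053 each, adjusted p = 0.574, 0.723 and 0.33), with intervals that reach from -0.17 to 0.20 over the 3 times. Ankrd1, a nuclear and sarcomeric ankyrin-repeat protein, differed by 0.009, -0.034 and 0.15 (SE 0.075 each), with overlapping arrays at each time.

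**Figure D2:**
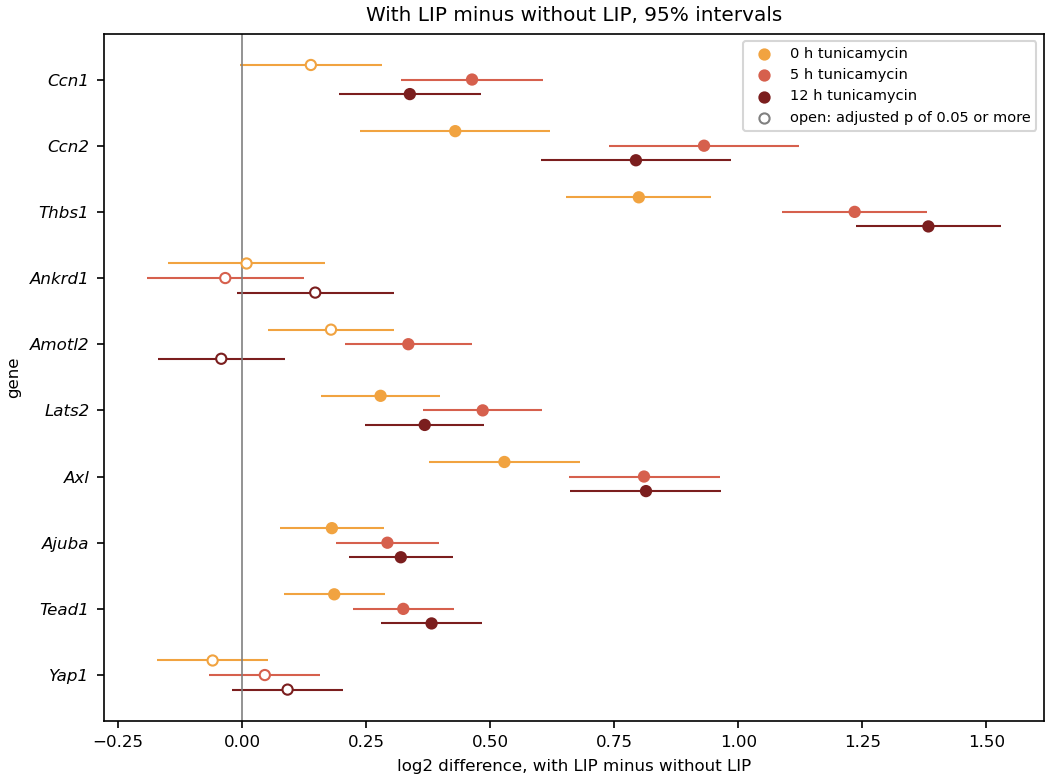
Log2 difference, LIP minus no LIP, for the 10 genes at 0, 5 and 12 h of tunicamycin. Points are limma estimates, lines are 95% intervals, and open points did not pass. Thbs1 lies farthest right at all 3 times (0.80, 1.23 and 1.38), and Amotl2 is back near 0 at 12 h.

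Tunicamycin without LIP moved the secreted genes up by 5 h and then, except for Ccn1, down. At 5 h against vehicle, 5 of the 10 genes rose (Ccn2, Thbs1, Ccn1, Axl and Tead1), while 4.08% of all genes were called higher and 4.94% lower. At 12 h against 5 h, 3 fell (Ccn2, Thbs1 and Yap1), with 13.6% of all genes called lower and 11.4% higher. At 12 h against vehicle, 3 were higher (Ccn1, Axl and Tead1; 11.9% of all genes) and 3 lower (Ccn2, Thbs1 and Yap1; 15.8% of all genes). Only Ccn2 and Thbs1 among the 10 rose at 5 h and then fell, a pattern met by 1.59% of all genes.

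Ccn2 had the steepest course. In vehicle it averaged 9.68 ± 0.071, at 5 h 10.73 ± 0.15 and at 12 h 9.33 ± 0.027 (SD, n = 3 each), so that all 5 h arrays lay above all others without LIP and all 12 h arrays below the vehicle arrays. Over all genes, 13.4% lay apart from vehicle and higher at 5 h, and 22% apart and lower at 12 h. Another 19.1% were apart and lower when 12 h was set against 5 h. Its rise by 5 h was 1.05 ± 0.091 (limma adjusted p = 7.74e-07), a 2.07-fold difference and the 15th largest rise of all genes. It fell by 1.40 ± 0.091 between 5 h and 12 h (adjusted p = 1.01e-09), the third largest fall. At 12 h it stood below vehicle (-0.35 ± 0.091, adjusted p = 0.00643).

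Thbs1 followed the same course with a smaller rise and a deeper end point. It averaged 9.80 ± 0.034 in vehicle, 10.22 ± 0.12 at 5 h and 9.02 ± 0.16 at 12 h (SD, n = 3 each). The rise was 0.42 ± 0.070 (limma adjusted p = 0.00075), and the change between 5 h and 12 h was -1.20 ± 0.070 (adjusted p = 2.24e-10). Against vehicle the 12 h level was -0.78 ± 0.070 (adjusted p = 6.32e-08), or 0.583-fold. Ccn1 did not pass over the second step: it averaged 11.51 ± 0.12, 11.88 ± 0.054 and 11.86 ± 0.042 at 0, 5 and 12 h. It was above vehicle by 0.37 ± 0.068 at 5 h (adjusted p = 0.00183) and 0.35 ± 0.068 at 12 h (adjusted p = 0.000481), and its difference between 12 h and 5 h was -0.017 ± 0.068 (interval -0.16 to 0.13).

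Axl rose by 0.29 ± 0.072 at 5 h (limma adjusted p = 0.0172) and was 0.20 ± 0.072 above vehicle at 12 h (adjusted p = 0.0458). Without the noisiest array (tunicamycin 5 h, experiment 2) the first had an adjusted p of 0.0579, and it was also lost without vehicle array 1 (0.0684) or 2 (0.0504); the second was lost without any of 13 single arrays (0.0516 to 0.179). Tead1 was above vehicle by 0.26 ± 0.048 at 5 h (adjusted p = 0.00197) and 0.15 ± 0.048 at 12 h (adjusted p = 0.0216). The call at 12 h was lost without vehicle array 3 (0.102) or tunicamycin 12 h array 2 (0.0603) or 3 (0.0754). Yap1 averaged 10.88 ± 0.058, 10.78 ± 0.077 and 10.55 ± 0.050 at 0, 5 and 12 h (SD, n = 3 each). It was lower than vehicle at 12 h (-0.33 ± 0.053, adjusted p = 8.17e-05), with every 12 h array under every vehicle array (22% of all genes were apart in this direction). The feedback genes Amotl2, Lats2 and Ajuba differed from vehicle by 0.14, 0.049 and 0.060 at 5 h and by 0.054, 0.066 and 0.073 at 12 h, and none of these 6 differences passed limma's threshold (1 of them, Amotl2 at 5 h, had an unadjusted p under 0.05, 0.0312; with array weights its adjusted p was 0.0166).

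With LIP present, tunicamycin for 5 h raised 8 of the 10 genes, all but Yap1 and Ankrd1, against LIP alone (6.54% of all genes were called higher and 5.56% lower). Ccn2 rose by 1.55 ± 0.091, or 2.93-fold, the second largest rise of all 19938 genes (limma adjusted p = 2.67e-09). Thbs1 rose by 0.86 ± 0.070, Ccn1 by 0.69 ± 0.068 and Axl by 0.57 ± 0.072 (adjusted p = 1.81e-07, 1.76e-06 and 3.3e-05). The feedback genes passed as well, though no interaction of theirs did (below): Amotl2 rose by 0.30 ± 0.061, Lats2 by 0.26 ± 0.057 and Ajuba by 0.17 ± 0.050 (adjusted p = 0.00248, 0.00523 and 0.0285). Tead1 rose by 0.40 ± 0.048 (adjusted p = 1.95e-05). Ajuba's call was lost in 6 settings, 4 of them leaving out 1 array (adjusted p of 0.0602 to 0.125 over the 6).

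After 12 h with LIP, 4 genes had fallen relative to 5 h (15.4% of all genes were called lower and 10.9% higher). Ccn2 changed by -1.53 ± 0.091 (limma adjusted p = 2.92e-10), the largest fall of all genes. Thbs1 changed by -1.05 ± 0.070 (adjusted p = 1.26e-09), Amotl2 by -0.46 ± 0.061 (adjusted p = 8.1e-06) and Yap1 by -0.18 ± 0.053 (adjusted p = 0.0172; 0.0548 to 0.102 in the 3 settings that lost it). Ccn2, Thbs1 and Amotl2 therefore rose and fell with LIP, as did 2.72% of all genes. Against LIP alone, 12 h left Ccn1 higher by 0.55 ± 0.068, Axl by 0.49 ± 0.072, Tead1 by 0.35 ± 0.048, Ajuba by 0.21 ± 0.050 and Lats2 by 0.15 ± 0.057 (adjusted p = 3.08e-06, 2.8e-05, 1.16e-05, 0.00241 and 0.0487), 5 genes against 13.4% of all genes called higher. Thbs1, Amotl2 and Yap1 were lower, with differences of -0.19, -0.17 and -0.18 (adjusted p = 0.0418, 0.0455 and 0.015), 3 genes against 16.6% of all genes called lower. Ccn2 differed from LIP alone by 0.017 ± 0.091 (interval -0.17 to 0.21). The calls of Thbs1, Amotl2 and Lats2 were lost without 7, 14 and 15 single arrays, that of Yap1 in 3 settings (adjusted p of 0.0706 to 0.0918), and with the experiment as a replicate block Amotl2 had an adjusted p of 0.0599.

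**Figure D3:**
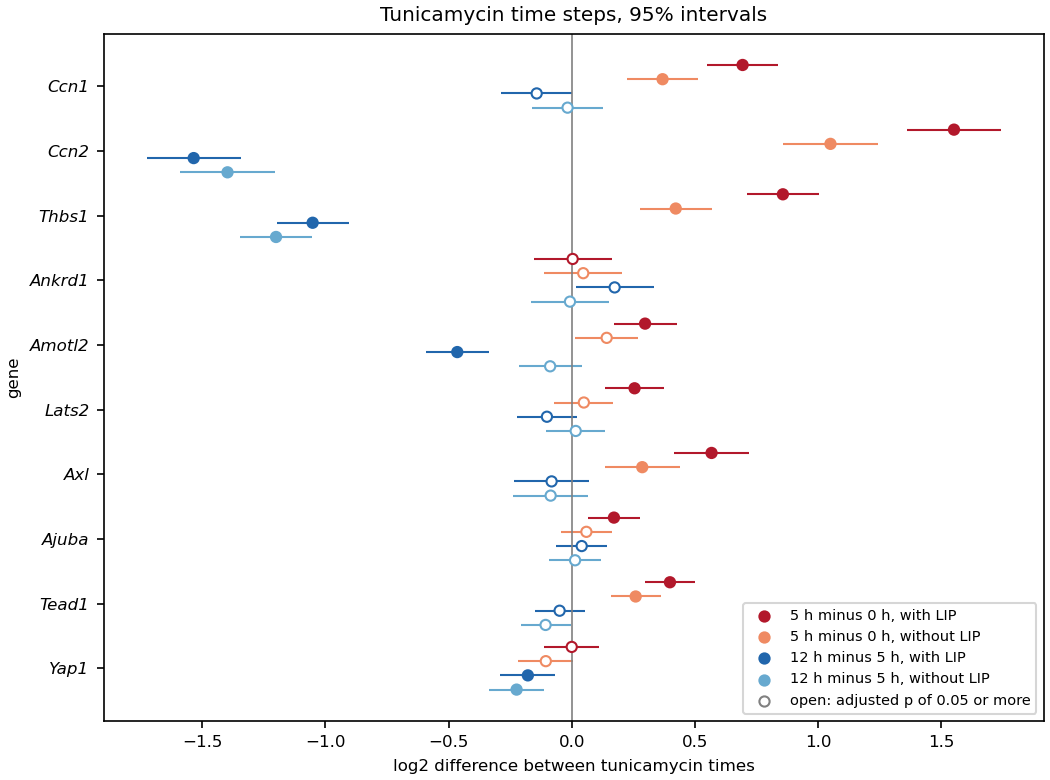
Log2 difference between tunicamycin times for the 10 genes, with and without LIP. Points are limma estimates, lines are 95% intervals, and open points did not pass. Only Ccn2, Thbs1, Amotl2 and Yap1 have filled points to the left of 0 at the step between 5 and 12 h.

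Whether tunicamycin acted differently with LIP was tested as an interaction, the tunicamycin change with LIP minus that without. At 12 h it passed for Thbs1, 0.58 ± 0.099 (limma adjusted p = 0.00349), positive in 3 of 3 experiments. Thbs1 changed by -0.19 over 12 h with LIP and by -0.78 without. This was 1 of the 10 genes, and 0.993% of all genes were called with a positive and 0.848% with a negative interaction at that time. Of the 10, 5 had an unadjusted p under 0.05 at 12 h, Thbs1 among them. The others were Ccn2 (0.36 ± 0.13, adjusted p = 0.204), Axl (0.29 ± 0.10, adjusted p = 0.214), Tead1 (0.20 ± 0.068, adjusted p = 0.195) and, with the opposite sign, Amotl2 (-0.22 ± 0.086, adjusted p = 0.266). At 5 h limma called 0 of the 10 (0.0301% of all genes), though 5 had an unadjusted p under 0.05: Ccn2 (0.50 ± 0.13, adjusted p = 0.241), Thbs1 (0.43 ± 0.099, adjusted p = 0.155), Ccn1 (0.32 ± 0.096, adjusted p = 0.387), Axl (0.28 ± 0.10, adjusted p = 0.495) and Lats2 (0.21 ± 0.081, adjusted p = 0.508). With array weights Ccn2 and Thbs1 passed at 5 h. A further form, added after the data were seen, set the step between 5 and 12 h with LIP against that without. It called 0 of the 10 (0.702% of all genes), with 1 unadjusted p under 0.05: Amotl2 at -0.38 ± 0.086 (adjusted p = 0.0503), negative in 3 of 3 experiments and past the threshold in 6 settings (adjusted p of 0.0115 to 0.0342).

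Over the 18 arrays the genes fell into overlapping patterns. Among the 28 pairs of the 8 genes other than Ankrd1 and Yap1, a choice made after the values were seen, Pearson r had a median of 0.745 and ran from 0.401 (Amotl2 with Ajuba) to 0.967 (Lats2 with Axl). Ccn2 was closest to Thbs1 (0.887) and Amotl2 (0.836), and Ccn1 to Tead1 (0.910) and Axl (0.841). Yap1 had r of -0.23 with Ccn1 and 0.53 with Thbs1. The arrays share their 6 groups, so these values mostly restate the group means. After group means were removed, Ccn1 with Ccn2 (0.73) and Lats2 with Axl (0.72) had the highest values, and Axl with Tead1 (-0.50) the lowest.

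**Figure D4:**
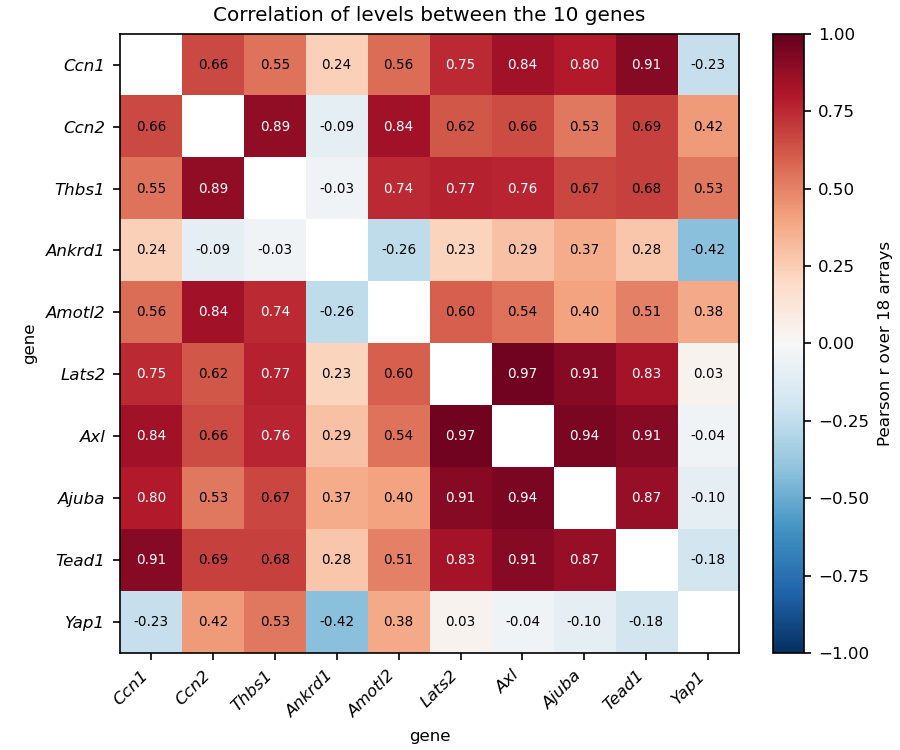
Pearson r between the levels of the 10 genes over 18 arrays (colour and number). Axl, Lats2, Ajuba and Tead1 form a block with values of 0.83 to 0.97, and Ankrd1 and Yap1 stand apart from it.

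The genes most like each secreted member over the 18 arrays were taken from the 12496 genes ranked. Nearest to Ccn2 were Mcam (r = 0.984), a melanoma adhesion molecule, Fgfr3 (0.982), Hbegf (0.974), an EGF receptor ligand, Pde4a (0.971) and Sbno2 (0.961). Mcam averaged 12.81 with LIP alone and 12.70 in vehicle, 13.08 with LIP and 12.95 without at 5 h, and 12.80 with LIP and 12.62 without at 12 h. Thbs1 was nearest to Actn1 (0.993), Cnn2 (0.986) and Vcl (0.981), which encode α-actinin, calponin and vinculin of the actin cytoskeleton, then Gcnt2 (0.976) and Cyp2u1 (0.971). Ccn1 had looser neighbours: Trim47 (0.939), Gtpbp3 (0.928), Rnd3 (0.921), Tmem120b (0.919) and Fzd4 (0.913).

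The mRNAs of the other YAP partners did not move as one. Wwtr1, which encodes TAZ, averaged 9.44 ± 0.10 with LIP and 10.20 ± 0.070 without LIP at 12 h of tunicamycin, and 9.35 ± 0.018 with LIP alone and 9.44 ± 0.043 in vehicle (SD, n = 3 each). Without LIP it rose by 0.76 ± 0.059 over 12 h (limma adjusted p = 9.19e-09), and the interaction was -0.68 ± 0.083 (adjusted p = 0.000128), opposite in sign to that of Thbs1. Tead3 resembled Tead1 in being higher with LIP at each time, by 0.45, 0.61 and 0.63 (SE 0.053 each, adjusted p = 2.24e-05, 3.63e-07 and 1.14e-07). Tead4 rose by 0.32 ± 0.043 at 5 h of tunicamycin and changed by -0.86 ± 0.043 between 5 and 12 h without LIP. Tead2 changed by -0.63 ± 0.063 over 12 h without LIP. Of the 8 genes on this list other than Tead1 and Yap1, 3, 2 and 5 were higher with LIP at 0, 5 and 12 h. At these times 0, 0 and 1 were lower. Over all genes 4.89%, 6.76% and 6.95% were called higher and 5.82%, 5.21% and 7.77% lower.

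**Figure D5:**
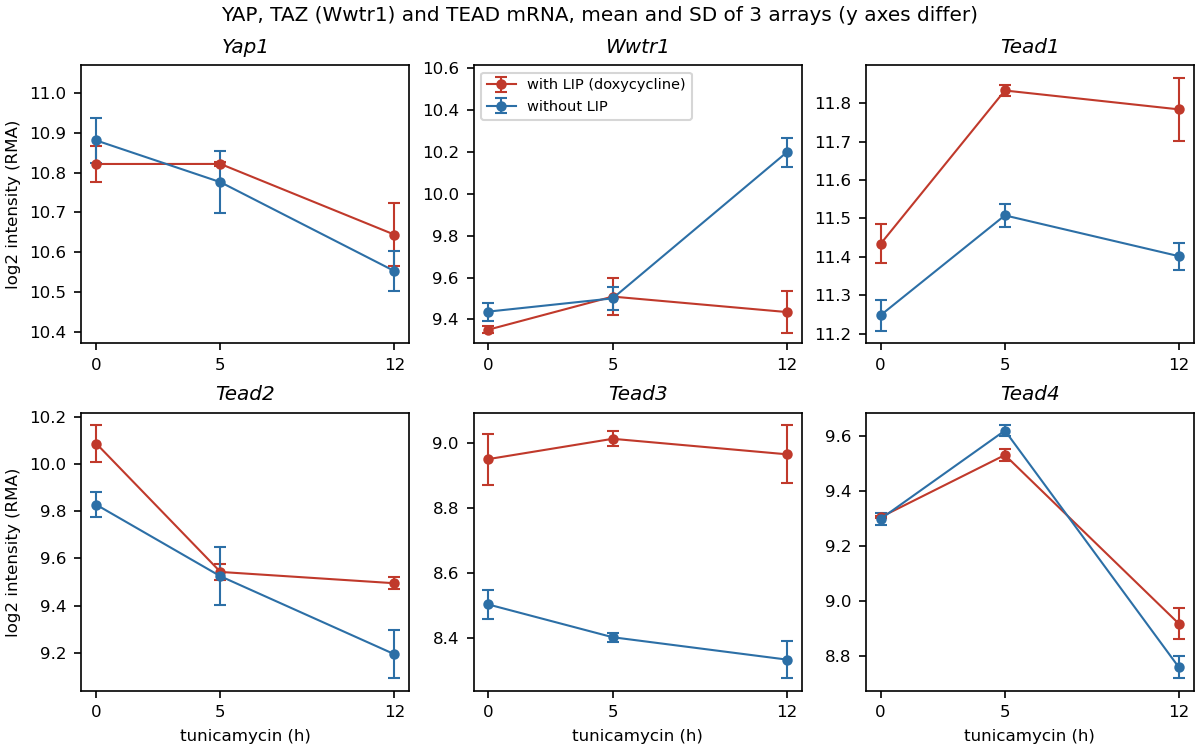
Mean log2 intensity (RMA, y axes differ) of Yap1, Wwtr1 (TAZ) and the 4 TEAD genes against hours of tunicamycin, with LIP (red) and without (blue). Bars are the SD of 3 arrays. Wwtr1 is at 10.20 at 12 h without LIP and at 9.44 with LIP, and Tead3 is higher with LIP throughout.

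Hippo kinases and upstream regulators, without Lats2, Amotl2 and Ajuba, made a list of 18 measured genes, all above the silent level. With LIP 2 of them fell at 0 h (Limd1 and Ptpn14; 5.82% of all genes were called lower). At 5 h of tunicamycin 4 rose and 1 fell (all genes 6.76% and 5.21%), and at 12 h 6 rose and 1 fell (all genes 6.95% and 7.77%; list median 0.057, all genes -0.003). Stk4, the kinase MST1, was higher with LIP by 0.50 ± 0.049 (limma adjusted p = 7.16e-07), Wwc1 by 0.34 ± 0.070 and Amot by 0.30 ± 0.081, while Ptpn14, a phosphatase that binds YAP, was lower (-0.35 ± 0.058). Tunicamycin for 12 h without LIP lowered 10 of the 18 (median -0.17; 15.8% of all genes were called lower), among them Wwc1 (-0.56 ± 0.070), Wtip (-0.56 ± 0.058), Frmd6 (-0.43 ± 0.060) and Limd1 (-0.40 ± 0.069). Lats2 itself did not pass in that comparison. Stk3 on this list is not analysed here.

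A published signature of YAP and TAZ targets, 22 measured genes, shares Amotl2, Lats2, Ccn1, Ccn2, Ankrd1 and Axl with the members. With LIP at 5 h of tunicamycin, 10 of its other 16 genes rose and 1 fell (all genes 6.76% and 5.21%), with a median of 0.26 (all genes -0.013). Among those that rose were Ccdc80 (0.87 ± 0.12), Myof (0.67 ± 0.053), Crim1 (0.64 ± 0.061) and F3 (0.49 ± 0.071). Ccdc80 averaged 6.01 without LIP at 5 h, under the silent level of 6.07. Of the 22 signature genes 17 lay above that level on average. At 0 h LIP raised 5 and lowered 1 of the 16 (all genes 4.89% and 5.82%), and at 12 h it raised 6 and lowered 2 (all genes 6.95% and 7.77%). Tunicamycin for 5 h without LIP raised 3 and lowered 1 (all genes 4.08% and 4.94%). F3, which encodes tissue factor, rose by 0.57 ± 0.071. Ccn2 rose at that time too, but F3 rose by a further 0.29 ± 0.071 between 5 and 12 h, where Ccn2 fell. Between 5 and 12 h without LIP 5 rose and 5 fell (all genes 11.4% and 13.6%). Gadd45a, a stress gene, rose by 1.69 ± 0.087 and Fjx1 changed by -0.54 ± 0.12. The median of the 16 over that step was -0.038, that of the 10 members -0.0865 and that of all genes -0.032. Of the 10 members 3 were called lower, and Ccn2 and Thbs1 were among the 8 largest falls of all genes.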

How the data were processed

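RNA of mouse B16 F10.9-4 cells was biotin-labelled and hybridised to 18 one-colour Affymetrix arrays, grouped from the labels into 6 groups of 3. The deposited tables hold log2 intensities of 35557 probe sets, which the authors summarised by RMA with Partek per the submitters' processing notes, without versions; no source used here names a genome build. They were not transformed again, and RMA compresses the change of dim probe sets. Arrays of a group had r of 0.993 to 0.998, with 0 identical pairs. Of the probe sets, 21789 carry 1 gene symbol, 1621 several and 12147 none. The brightest single-symbol probe set of each gene was kept (999 genes had several), which gave 19938 genes; a mouse gene table matched 21698 of the single-symbol probe sets by Entrez ID and changed 0 symbols.

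Each comparison was tested with limma (version 3.58.1, R 4.3.3) on 6 group means over all 18 arrays (12 residual and 5.99 prior degrees of freedom). Adjustment was by Benjamini-Hochberg over all genes and the threshold was 0.05; p-values measure the spread between 3 independent experiments in 1 line. On simulated data for tunicamycin 5 h against vehicle (19938 genes), 59% of changes of 0.3 and 95% of changes of 0.6 were recovered. Fewer genes were changed in the simulation than limma called in the real comparison, so recovery there can differ. The members, lists and tests were chosen with earlier results of these data known. The text names the 10 members, Cebpb, Ddit3 and Hspa5, in each comparison described up to 4 other genes of a list with the largest change past the threshold (or the smallest p), and the 5 genes of highest Pearson r with Ccn2, Thbs1 and Ccn1; only this ranking left out genes below the silent level, predicted or clone-named genes and small RNAs. The highest and lowest fibroblast markers are named as well.

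The main tests held no term for the experiment. For the replicate block and the signs per experiment, arrays were matched by the number of 1 to 3 in each label. The series design has 3 experiments with every treatment in each, but the labels do not state outright that the number is the experiment. The data show little of a pairing: deviations from group means in 45 same-number pairs had a median r of 0.038 (-0.503 to 0.496), 14 above 0.1, against -0.014 for different numbers. The alternatives were the experiment as a replicate block, the compared groups alone, dim genes left out, quantile normalization repeated, array medians set equal, estimated array weights, a robust fit with a variance trend, averaging the probe sets of a gene, and leaving out each array or the 2 arrays in doubt (tunicamycin 5 h, experiment 2, and tunicamycin 12 h, experiment 3). The interaction of 12 h against 5 h was added after the data were seen.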

Additional observations from a re-analysis of the deposited data

Results flagged for a closer look

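Among the members, the interaction of LIP with tunicamycin at 12 h was different from 0 for Thbs1 (0.58 on the log2 scale, limma adjusted p = 0.00349). Groups of 3 arrays were not searched for outliers. Of the other genes on the lists, the tunicamycin response at 5 h differed between cells with and without LIP for Tagln (0.52). At 12 h it differed for Stk4 (0.37) and Frmd6 (0.37) of the Hippo list and for Wwtr1 (-0.68), and for the cytoskeletal genes Tagln (0.39), Vcl (0.37), Tpm4 (0.31) and Actn1 (0.31). Cebpb, the gene LIP is made from, differed by -0.62 at 12 h. The step between 5 and 12 h differed for Wwtr1 (-0.77), Gadd45a (-0.65) and Cebpb (-0.59). Positive values mean a change between tunicamycin times that was higher with LIP than without. For Thbs1 the positive value was a smaller fall over 12 h, -0.19 with LIP against -0.78 without.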

How the results depend on the processing

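Of the 56 calls made for the 10 genes in 12 comparisons, 45 held in every alternative, and of 3228 values under alternatives 115 crossed the threshold while 0 called values changed sign. With LIP against without, the number of genes called stayed at 8 at 5 h and 7 at 12 h in all alternatives, and lay between 4 and 7 (main 6) at 0 h. The count for LIP with 12 h tunicamycin against LIP alone (8) was 4 to 8 with 1 array left out: 5 without vehicle array 1, vehicle array 2, or the 12 h LIP array 1 or 3, and 4 without LIP array 3. The interaction at 5 h called 1 gene with a variance trend (Thbs1) and 2 with array weights, against 0. That at 12 h called 2 genes, against 1, with array weights, and 1 to 2 with 1 array left out; Axl joined Thbs1 with array weights and without the 12 h LIP array 1. The interaction of 12 h against 5 h called 1 gene (Amotl2), against 0, with dim genes left out, quantile normalization repeated, a variance trend or array weights, and 0 to 1 with 1 array left out. The replicate block changed 1 call, that of Amotl2 in LIP with 12 h tunicamycin against LIP alone (-0.17, adjusted p = 0.0599 against 0.0455), and no other; the mean of both Tead1 probe sets changed none. Causes of these changes were not tested. Array medians set equal moved the split of all genes called higher and lower to 495 and 1578 in tunicamycin 5 h against vehicle (main 813 and 985), 2606 and 1868 in 12 h against 5 h (2264 and 2719), 587 and 1761 in LIP against vehicle (974 and 1161) and 230 and 87 in the 12 h interaction (198 and 169). Repeated quantile normalization moved it to 7 and 1 in the 5 h interaction (6 and 0) and 88 and 116 in that of 12 h against 5 h (42 and 98). Signal over background limits Ankrd1, which lay below the silent level.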

Other observations

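Targets of SRF and its actin-regulated coactivators MRTF, a pathway that shares many matrix and cytoskeletal genes with YAP, were counted beside the members. With LIP, 11 of 16 measured genes rose at 0 h, 14 at 5 h and 13 at 12 h (medians 0.24, 0.32 and 0.39), while 4.89%, 6.76% and 6.95% of all genes were called higher. Actg2, a smooth muscle actin, was higher with LIP by 1.04 ± 0.10, 1.67 ± 0.10 and 1.59 ± 0.10 (SE, limma adjusted p = 2.27e-06, 2.64e-09 and 2.58e-09). Between 5 and 12 h of tunicamycin without LIP 6 of the 16 fell (13.6% of all genes were called lower). Vcl changed by -0.77 ± 0.064, Cnn2 by -0.69 ± 0.050 and Actn1 by -0.57 ± 0.048. Vcl, Cnn2 and Actn1 are also among the 5 genes nearest to Thbs1, so the list and that ranking are not separate evidence.

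Of 11 measured genes on a list of TGF-β and SMAD targets, 7 rose with tunicamycin at 5 h without LIP, and 1 fell (median 0.60). Ccn2 and Thbs1 rose in this comparison too, and 4.08% of all genes were called higher and 4.94% lower. With LIP 8 rose (median 0.97), while 6.54% of all genes were called higher. Id3 rose by 1.75 ± 0.075, Id1 by 1.64 ± 0.076, Smad6 by 1.13 ± 0.059 and Pmepa1 by 1.08 ± 0.067 without LIP (adjusted p = 4.96e-11, 1.33e-10, 7.84e-10 and 7.83e-09). Tgfb2 was the gene that fell (-0.25 ± 0.074, limma adjusted p = 0.039). Tgfbi (0.21), Tgfb1 (-0.21) and Bambi (0.086) did not pass (limma adjusted p = 0.207, 0.0779 and 0.402). The list was not split by signal, and whether TGF-β itself acted was not tested. Between 5 and 12 h 8 of the 11 fell without LIP and 9 with LIP (13.6% and 15.4% of all genes were called lower). Unlike Thbs1 and Ccn2, this list held genes in both directions with LIP: 3 rose and 3 fell at 0 h, 3 rose and 2 fell at 5 h, and 3 rose and 3 fell at 12 h. The shares of all genes called higher and lower with LIP were 4.89% and 5.82%, 6.76% and 5.21%, and 6.95% and 7.77%. Of 7 AP-1 subunit genes, 2 rose with LIP at 5 h (Fos by 0.49 ± 0.11 and Fosl2 by 0.26 ± 0.056; 6.76% of all genes were called higher). At 0 h and at 12 h limma called 0 of the 7 with LIP, with 2 at an unadjusted p under 0.05 each time and medians of 0.020 and -0.013.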
